A study of Homo sapiens with 14 samples.

Results

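The MYC and MAX network is a set of transcription factors that compete for the same short DNA site, and 10 of its genes were followed through all 7 groups of this RNA sequencing series. The genes were MYC, MAX, MXD1, MXD3, MXD4, MXI1, MNT, MGA, MLX and MLXIP, chosen as a fixed list of symbols. All 10 were found among the 13734 genes of the deposited table, and all 10 passed the filter on low values. The cells were MDA-MB-231, an established human breast cancer line of mesenchymal character, so every group is 1 line. The 14 libraries fell into 7 groups of 2. They were control siRNA, YAP/TAZ siRNA mix 1 and mix 2 (48 h), siRNA against BET family genes (BRD siRNA) as mix A and mix B (72 h), DMSO vehicle, and the BET inhibitor JQ1 (1 µM, 24 h). Harvest times of the control siRNA and DMSO cells are not given, nor whether the DMSO and JQ1 cells went through transfection. YAP and TAZ are transcriptional co-activators held in check by Hippo signalling, and BET proteins read acetylated histones.

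MYC drives genes of cell growth, ribosome production and proliferation, and it binds DNA only as a dimer with MAX. The MXD proteins, MXI1 and MNT also pair with MAX, occupy the same E-box sites and bring in SIN3 corepressors. MXD genes are known for rising when cells stop dividing and differentiate, and MYC is known for rising when cells are driven to divide. MGA pairs with MAX inside a polycomb complex with E2F6. MLX is a parallel hub that pairs with MLXIP (MondoA), a sensor of glucose metabolites, and also with some MXD proteins and MNT. BET inhibitors are best known for lowering MYC in blood cancers.

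The preferred site of the network is the canonical E-box CACGTG, which reads the same on both strands. The 250 bases before each transcription start were searched for it in the RefSeq promoter table (GRCh38.p14), where 9 of the 10 genes matched by symbol and MYC did not. These 9 genes had 14 promoters there. Of these, 3 held the site, those of MXD4, MNT and MLX, while 6.35% of all 35116 promoters of this length did. The matches began 238, 193 and 50 bases before the start of MXD4, MNT and MLX. These promoters are shown because they belong to network genes that carry the network's own site, with CACGTG in capitals. They lie at chr4:2262110-2262359 (minus strand), chr17:2401061-2401310 (minus strand) and chr17:42566850-42567099 (plus strand).
MXD4: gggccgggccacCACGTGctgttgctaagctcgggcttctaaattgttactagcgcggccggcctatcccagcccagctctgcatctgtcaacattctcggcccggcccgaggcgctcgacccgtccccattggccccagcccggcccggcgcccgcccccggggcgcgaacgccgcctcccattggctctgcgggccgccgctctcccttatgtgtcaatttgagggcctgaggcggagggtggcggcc
MNT: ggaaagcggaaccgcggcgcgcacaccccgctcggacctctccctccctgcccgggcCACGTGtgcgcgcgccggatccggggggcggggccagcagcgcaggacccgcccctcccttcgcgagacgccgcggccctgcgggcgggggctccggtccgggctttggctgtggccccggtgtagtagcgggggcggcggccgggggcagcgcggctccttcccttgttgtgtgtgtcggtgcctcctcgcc
MLX: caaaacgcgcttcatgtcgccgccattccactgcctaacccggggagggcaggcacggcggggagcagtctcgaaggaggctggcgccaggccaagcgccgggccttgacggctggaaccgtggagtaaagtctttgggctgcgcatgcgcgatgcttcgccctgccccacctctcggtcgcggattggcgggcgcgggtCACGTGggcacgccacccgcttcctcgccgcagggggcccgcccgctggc
The TEAD-type site CATTCC, searched on both strands, was found in 3 of the 14 promoters, those of MXI1, MGA and MLX, and in 11.9% of all promoters. The AP-1 type site TGANTCA was found in 1 of the 14, of MXD3 (6.57% of all promoters), and the CRE-type site TGACGTCA in 1, of MLXIP (1.65%). A match is a stretch of letters and not a measured binding site.

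Depth was 15741695 to 37311326 reads in genes per library (median 23539829). Levels are in scaled RPM, that is reads per scaled library total, and fold changes are differences of log2(value + 1), which understate changes of low genes. Nothing in the labels says that the replicates were separate cultures, so the spread behind each p-value may be technical. These targeted transcripts were lower under their siRNA: YAP1 8.11-fold, WWTR1 8.56-fold, BRD3 2.99-fold and BRD2 1.45-fold. YAP1 was also lower with BRD siRNA (1.81-fold) and JQ1 (1.79-fold). WWTR1 was lower with JQ1 (1.25-fold) and not called with BRD siRNA. BRD2 was 3.8-fold higher with JQ1. All 8 marker genes of the line were found, with VIM at 2894 or more in every library. With YAP/TAZ siRNA 5 of these 8 were called lower and 1 higher (median log2 fold change -0.65), against 35.9% and 43.1% of all tested genes. With BRD siRNA 1 was lower and 4 higher, against 37.6% and 37.6%. With JQ1 4 were lower and 3 higher, against 36.3% and 37.6%. Luminal markers moved with some groups: the 15 of 18 listed genes found in the table summed to 1371 to 1431 with control siRNA, 2509 to 2724 with YAP/TAZ siRNA, 1472 to 1476 with DMSO and 5446 to 5921 with JQ1, and MUC1 reached 0. KRT8, KRT18 and KRT19, with highest values of 2265, 1687 and 1877, carry this sum: 13 of the 15 genes were called higher with YAP/TAZ siRNA, but with JQ1 only 6 were higher and 3 lower (median log2 fold change 0.14). The 5 of 14 leukocyte markers found summed to 70.7 to 73.3 with control siRNA, 137 to 207 with YAP/TAZ siRNA and 38.5 to 43.7 with BRD siRNA. The 5 of 13 fibroblast and endothelial markers found summed to 14.7 to 18.9, 41.5 to 48.9 and 33.6 to 53.8 in these groups. With BRD siRNA 1 of these 5 was called higher and 1 lower (median -0.16), so that sum does not stand for the list. The part of these shifts in the network genes was not tested. The replicates of BRD mix A stood farther apart (chi-square per gene of 10.8) than those of the other groups (3.46 to 5.05), and values of mix B alone are given below beside the BRD means that differ between mixes.

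**Figure D1:**
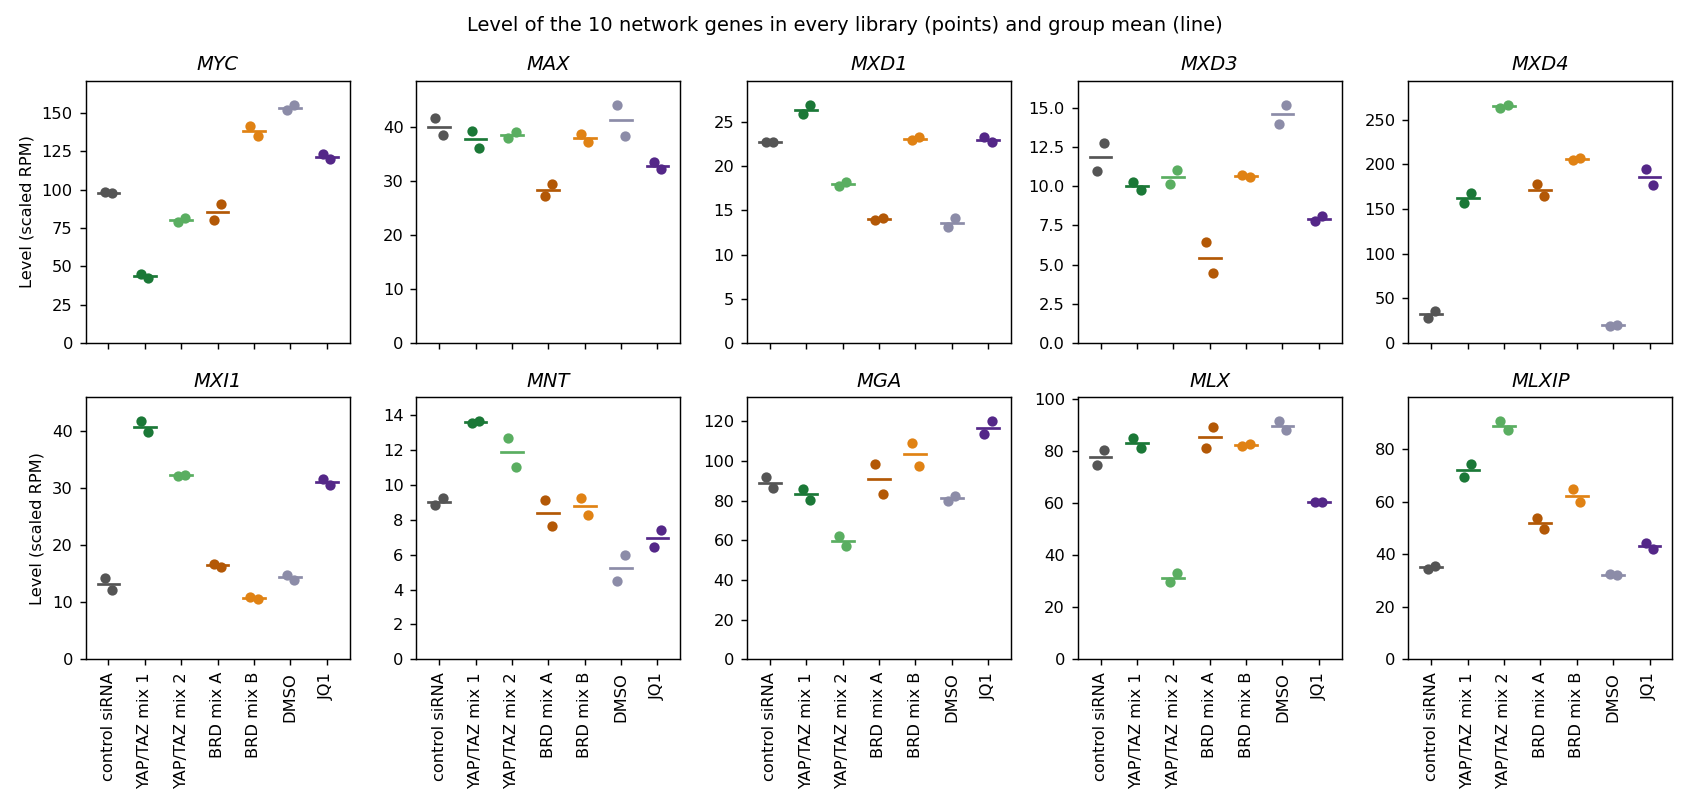
Level of each network gene in scaled RPM (vertical axes from 0) in every library (points, 2 per group) with the group mean (line). MXD4 sits between 19.3 and 36.3 in the 4 control libraries and between 156 and 266 in the other 10 libraries, whereas MAX stays between 27.1 and 44.02 throughout.

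Of the 10 genes, MXD4 moved most in all 3 main comparisons, and it rose each time. It went up 6.28-fold with YAP/TAZ siRNA, 5.69-fold with BRD siRNA and 8.96-fold with JQ1 on the log2(value + 1) scale. MLXIP also rose in all 3. MYC fell with YAP/TAZ siRNA and JQ1 but not with BRD siRNA, where its mixes went opposite ways. MXI1 rose more than 2-fold with YAP/TAZ siRNA and JQ1, and MAX fell modestly with BRD siRNA and JQ1. In a bulk library, less RNA per cell and fewer cells that carry the RNA cannot be told apart.

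The counts have to be read against a large background. With YAP/TAZ siRNA 7 of the 10 genes were called, where 78.9% of the 13674 tested genes were (limma adjusted p under 0.05). Of the 7, 4 were higher (43.1% of all genes) and 3 lower (35.9%). With BRD siRNA 6 were called against 75.2% of all genes, 3 higher (37.6%) and 3 lower (37.6%). With JQ1 all 10 were called against 73.9%, 6 higher (37.6%) and 4 lower (36.3%). Changes of at least 2-fold were called for MXD4, MXI1 and MLXIP with YAP/TAZ siRNA, 3 genes against 17.9% of all genes. The count was 1 with BRD siRNA (MXD4) against 13.3%, and 2 with JQ1 (MXD4 and MXI1) against 17.5%. The median log2 fold change of the 10 genes was -0.06, 0.06 and 0.39 in these comparisons, and that of all tested genes was 0.07, -0.00 and 0.01. A share of calls near the background is no result about the network as a whole, so its members are described singly. The YAP/TAZ and BRD comparisons share the same 2 control siRNA libraries.

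**Figure D2:**
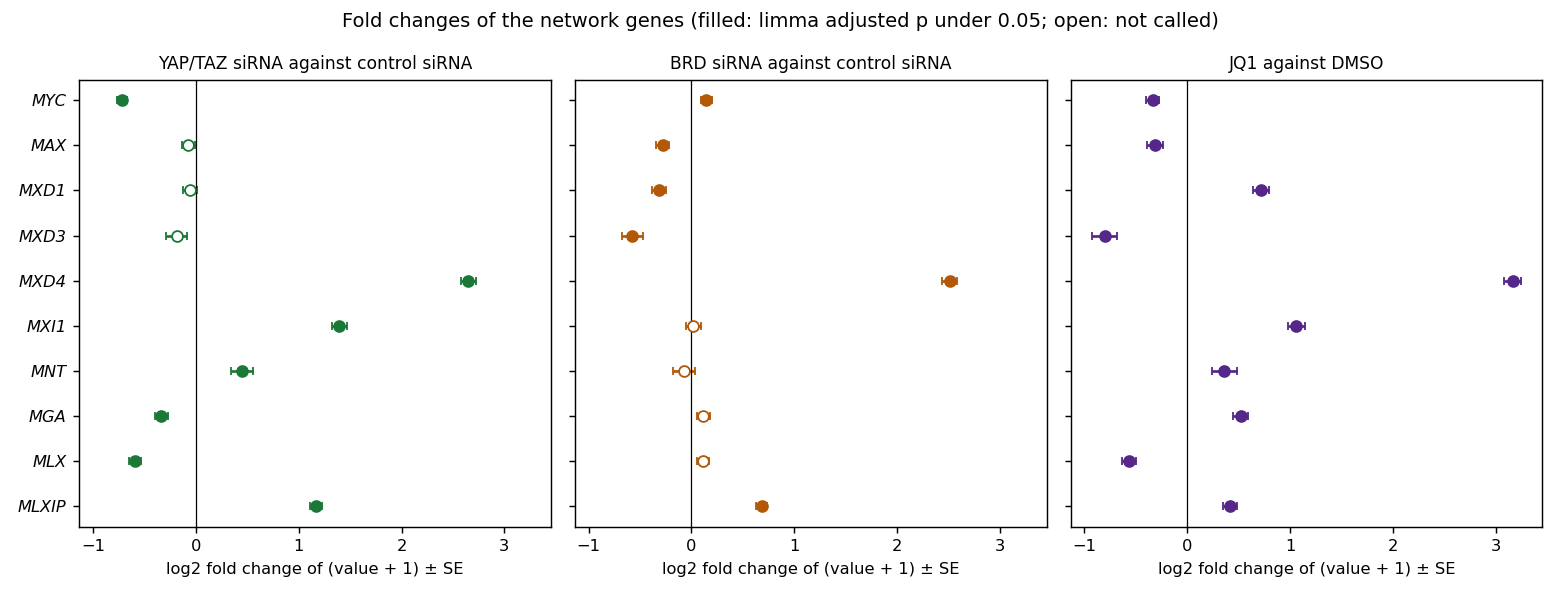
Log2 fold change of value + 1 with its standard error (horizontal axis) for each network gene in the 3 main comparisons, filled where limma's adjusted p was under 0.05. MXD4 lies farthest right in each, at 2.65, 2.51 and 3.16.

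MYC, the activator of the network, stood at 98.3 and 97.7 scaled RPM with control siRNA. It was at 44.7 and 42.6 with YAP/TAZ mix 1 and at 78.99 and 81.5 with mix 2. With BRD mix A it was at 80.3 and 90.7, and with mix B at 141 and 135. DMSO gave 152 and 155, and JQ1 gave 123 and 119.6. Thus MYC was lowest with YAP/TAZ mix 1 and highest in DMSO, and among neighbouring groups in this order only YAP/TAZ mix 2 and BRD mix A overlapped. MYC fell with YAP/TAZ siRNA (-0.72, SE 0.0522, limma adjusted p = 6.34e-11), by 1.15 with mix 1 and by 0.29 with mix 2. It fell with JQ1 as well (-0.34, SE 0.0603, limma adjusted p = 3.83e-05), and both JQ1 libraries lay below both DMSO libraries.

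With BRD siRNA MYC passed the threshold narrowly, as a rise (0.15, SE 0.0522, limma adjusted p = 0.0162), and its libraries overlapped the control. This value averages opposite mixes: MYC fell with mix A (-0.20, limma adjusted p = 0.00607) and rose with mix B (0.49, limma adjusted p = 3.45e-07). Set against the DMSO libraries, the BRD libraries were lower (-0.50, limma adjusted p = 2.1e-08). The rise was not called in 6 of the 18 other settings, among them without control siRNA replicate 1 (0.15, adjusted p = 0.0514) or replicate 2 (0.14, adjusted p = 0.0648), mix A replicate 2 (0.10, adjusted p = 0.0635) or mix B replicate 1 (0.13, adjusted p = 0.056). The adjusted p ran from 0.00138 to 0.0648 over 18 other settings.

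PVT1, the noncoding gene beside MYC, was lower in all 3 comparisons. It stood at 10.8 and 11.3 with control siRNA, 7.77 and 7.198 with YAP/TAZ mix 1, 7.35 and 8.67 with mix 2, 8.49 and 8.07 with BRD mix A and 8.33 and 8.098 with mix B. It fell with YAP/TAZ siRNA (-0.46, SE 0.0882, limma adjusted p = 6.95e-05) and with BRD siRNA (-0.38, SE 0.0882, limma adjusted p = 0.000601). With JQ1 it fell from 11.2 and 10.4 to 6.62 and 7.02 (-0.59, SE 0.102, limma adjusted p = 2.4e-05). Unlike MYC, PVT1 was not called between DMSO and control siRNA (-0.03, limma adjusted p = 0.826). How strand was used in the counting is not stated, so reads of overlapping genes cannot be told apart.

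MAX, the shared partner of MYC, the MXD proteins, MNT and MGA, had the narrowest range of the 10 genes, its highest library being 1.62 times its lowest. Control siRNA gave 41.6 and 38.5, YAP/TAZ mix 1 gave 39.2 and 36.03, and mix 2 gave 37.9 and 38.9. These groups overlapped, and no difference was called (-0.07, SE 0.0667, limma adjusted p = 0.328). BRD mix A gave 27.1 and 29.4, below every control library, and mix B gave 38.6 and 37.2. MAX fell with BRD siRNA as the mean of both mixes (-0.28, SE 0.0667, limma adjusted p = 0.000744), with -0.49 for mix A, while mix B alone was not called (-0.07, limma adjusted p = 0.396). With JQ1 it fell from 44.02 and 38.2 to 33.4 and 32.1 (-0.32, SE 0.077, limma adjusted p = 0.000933).

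MXD4 encodes a MAX partner that represses growth genes. It stood at 28.5 and 36.3 with control siRNA and at 19.3 and 20.3 with DMSO. YAP/TAZ mix 1 gave 156 and 168, and mix 2 gave 263 and 266. BRD mix A gave 178 and 164, BRD mix B gave 205 and 207, and JQ1 gave 195 and 176. No treated library overlapped a control library. MXD4 rose with YAP/TAZ siRNA (2.65, SE 0.0701, limma adjusted p = 5.27e-18), with BRD siRNA (2.51, SE 0.0701, limma adjusted p = 2.96e-17) and with JQ1 (3.16, SE 0.0809, limma adjusted p = 6.47e-18). With each mix alone the log2 fold change was between 2.30 and 3.00. Among the treated groups, BRD mix A overlapped both YAP/TAZ mix 1 and JQ1, and BRD mix B and YAP/TAZ mix 2 lay above all of these.

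MXI1, another MAX partner and repressor, separated the knockdowns. Control siRNA gave 14.3 and 12.1, YAP/TAZ mix 1 gave 41.7 and 39.8, and mix 2 gave 32.1 and 32.3. BRD mix A gave 16.7 and 16.1, BRD mix B gave 10.9 and 10.6, DMSO gave 14.8 and 13.9, and JQ1 gave 31.6 and 30.5. The YAP/TAZ and JQ1 libraries all lay above every other library. MXI1 rose with YAP/TAZ siRNA (1.40, SE 0.0725, limma adjusted p = 2.38e-13) and with JQ1 (1.06, SE 0.0838, limma adjusted p = 3.08e-10). With BRD siRNA it was not called (0.02, limma adjusted p = 0.841), being higher with mix A (0.30, limma adjusted p = 0.00294) and lower with mix B (-0.27, limma adjusted p = 0.00731). The JQ1 effect exceeded the BRD siRNA effect (1.04, SE 0.111, limma adjusted p = 8.61e-08).

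MXD1, a MAX partner that rises in differentiating cells, was at 22.8 and 22.7 with control siRNA and at 13.1 and 14.1 with DMSO. JQ1 gave 23.2 and 22.7, above both DMSO libraries and at the level of control siRNA. MXD1 thus rose with JQ1 (0.71, SE 0.0766, limma adjusted p = 3.71e-08). With BRD siRNA it fell as a mean (-0.32, SE 0.0664, limma adjusted p = 0.000204), to 13.9 and 14.1 with mix A, while mix B was at 22.9 and 23.2 and not called (0.02, limma adjusted p = 0.822). With YAP/TAZ siRNA it was not called (-0.06, limma adjusted p = 0.426), at 25.9 and 26.9 with mix 1 and 17.7 and 18.2 with mix 2. Set against DMSO in place of control siRNA, MXD1 was higher with YAP/TAZ siRNA (0.64, limma adjusted p = 1.22e-08) and with BRD siRNA (0.38, limma adjusted p = 2.31e-05).

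MXD3 is the MXD member known for expression in S phase of dividing cells. It was at 10.98 and 12.8 with control siRNA, 10.3 and 9.75 with YAP/TAZ mix 1 and 10.2 and 11.01 with mix 2, and no difference was called (-0.19, limma adjusted p = 0.112). BRD mix A gave 6.45 and 4.45, and mix B gave 10.7 and 10.6. It fell with BRD siRNA (-0.57, SE 0.105, limma adjusted p = 4.98e-05), by 1.01 with mix A, while mix B alone was not called (-0.14, limma adjusted p = 0.317). With JQ1 it fell from 14 and 15.2 to 7.78 and 8.08 (-0.80, SE 0.121, limma adjusted p = 4.76e-06). Of the MXD genes and MXI1, MXD3 was the only one called lower with JQ1.

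MNT, a MAX partner found in most cells, was the lowest of the 10 genes per kilobase of exon in 6 of 7 groups. It was at 8.85 and 9.27 with control siRNA, 13.6 and 13.7 with YAP/TAZ mix 1 and 12.7 and 11.1 with mix 2. It rose with YAP/TAZ siRNA (0.45, SE 0.105, limma adjusted p = 0.000626), and its libraries did not overlap the control. With BRD siRNA it was at 9.15 and 7.66 (mix A) and 9.29 and 8.27 (mix B), which overlapped the control (-0.07, limma adjusted p = 0.546). DMSO gave 4.51 and 5.96 and JQ1 gave 6.46 and 7.44, a rise (0.36, SE 0.122, limma adjusted p = 0.0119). That JQ1 call was lost without DMSO replicate 1 (0.19, adjusted p = 0.24) or JQ1 replicate 2 (0.27, adjusted p = 0.121) and with quantile normalization (0.25, adjusted p = 0.0576). Its adjusted p ran from 0.00131 to 0.24 over 16 other settings.

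MGA, a large protein with a T-box beside its MAX-binding domain, was at 91.98 and 86.1 with control siRNA. YAP/TAZ mix 1 gave 86.05 and 80.2, and mix 2 gave 62.05 and 57.1. It fell as a mean (-0.34, SE 0.0651, limma adjusted p = 8.62e-05), by 0.57 with mix 2, while mix 1 alone was not called (-0.10, limma adjusted p = 0.241). BRD siRNA gave 98.2 and 83.2 with mix A and 109 and 97.6 with mix B. MGA was called higher with mix B alone (0.21, limma adjusted p = 0.0175) but not with mix A alone (0.02, limma adjusted p = 0.799). As the mean of both mixes it was not called (0.12, limma adjusted p = 0.113). Without mix A replicate 2 it passed (0.17, adjusted p = 0.0106), in a range of 0.0106 to 0.468 over 18 other settings. With JQ1 MGA rose from 79.6 and 82.5 to 113 and 120.0 (0.52, SE 0.0752, limma adjusted p = 2.62e-06).

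MLX and MLXIP, the partners of the glucose-sensing branch, moved in opposite directions with YAP/TAZ siRNA and with JQ1. MLX was at 74.8 and 80.4 with control siRNA, 84.96 and 81.4 with YAP/TAZ mix 1, and 29.6 and 33.2 with mix 2. Its mean fall with YAP/TAZ siRNA (-0.59, SE 0.0571, limma adjusted p = 6.31e-09) came from mix 2 (-1.28, limma adjusted p = 2.06e-13), and mix 1 alone was not called (0.10, limma adjusted p = 0.178). BRD mix A gave 81.2 and 89.4 and mix B gave 82.2 and 82.98, with no call (0.11, limma adjusted p = 0.0833). It passed without control siRNA replicate 2 (0.16, adjusted p = 0.0463) or mix A replicate 1 (0.15, adjusted p = 0.0248), in a range of 0.0248 to 0.461 over 18 other settings. With JQ1 MLX fell from 91.6 and 88.2 to 60.6 and 60.4 (-0.56, SE 0.0659, limma adjusted p = 1.35e-07).

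MLXIP was at 34.5 and 35.6 with control siRNA and at 32.4 and 31.98 with DMSO. YAP/TAZ mix 1 gave 69.4 and 74.5, and mix 2 gave 90.7 and 87.3. BRD mix A gave 54.00 and 49.8, mix B gave 64.7 and 59.9, and JQ1 gave 44.5 and 42.1. All 10 treated libraries lay above all 4 control libraries. MLXIP rose with YAP/TAZ siRNA (1.17, SE 0.0569, limma adjusted p = 8.25e-14), with BRD siRNA (0.68, SE 0.0569, limma adjusted p = 7.32e-10) and with JQ1 (0.42, SE 0.0657, limma adjusted p = 8.43e-06). With the BRD mixes alone its rise was 0.55 for mix A and 0.81 for mix B.

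The siRNA mixes of 1 target differed for many genes of the table, and the members have to be read against that background. For YAP/TAZ the share of members lay near that of all genes. Between YAP/TAZ mix 1 and mix 2, 7 of 10 members differed, against 65.7% of all tested genes. Of these, 4 were higher with mix 1 (30.9% of all genes). MLX differed most (1.38, SE 0.0659, limma adjusted p = 1.66e-13), followed by MYC (-0.86, SE 0.0603, limma adjusted p = 7.63e-11). Between BRD mix A and mix B, 8 members differed, against 50.0% of all tested genes, and 7 were lower with mix A (24.3% of all genes). MXD3 (-0.87), MYC (-0.69) and MXD1 (-0.68) differed most. MXD4, MXI1, MNT, MLXIP and MYC were called in 1 direction with both YAP/TAZ mixes. With both BRD mixes MXD4 and MLXIP were. The share of all genes called in 1 direction with both mixes is not given here, so these counts are no result about the network.

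**Figure D3:**
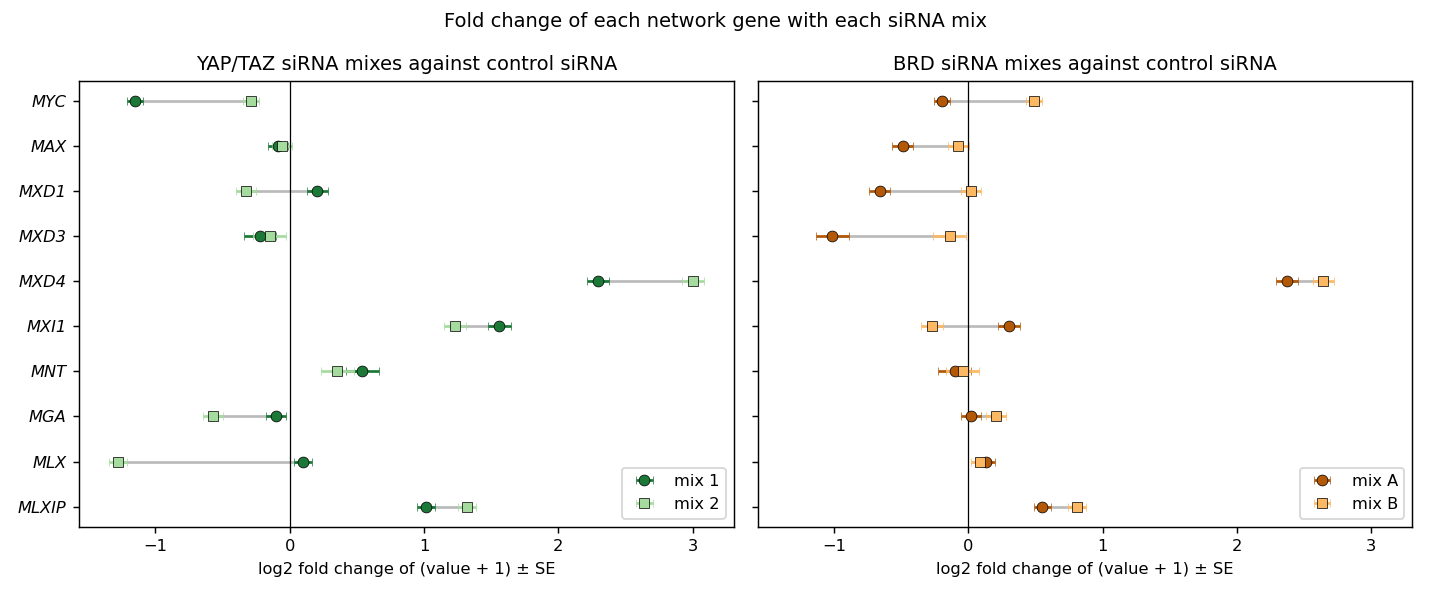
Log2 fold change of value + 1 against control siRNA with its standard error for each siRNA mix, YAP/TAZ mixes on the left and BRD mixes on the right. MLX is at 0.10 with mix 1 and -1.28 with mix 2, and MYC lies on opposite sides of 0 with BRD mix A (-0.20) and mix B (0.49).

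The control groups themselves differed in 5 of the 10 genes, against 54.2% of all tested genes. In DMSO, MYC was higher than with control siRNA (0.64, SE 0.0603, limma adjusted p = 2.38e-08). MXD1 (-0.70), MNT (-0.70) and MXD4 (-0.67) were lower, and MLX was higher (0.21, limma adjusted p = 0.0109). The MLX call failed when control siRNA replicate 1 (0.16, adjusted p = 0.098) or DMSO replicate 1 (0.18, adjusted p = 0.0883) was left out, in a range of 0.00775 to 0.098 over 16 other settings. MXD3 was not called (0.28, limma adjusted p = 0.0578) but passed in 7 of 16 other settings. No network gene differed 2-fold between the controls, where 3.33% of all genes did. Transfection, time in culture and vehicle cannot be told apart in this difference.

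Tests of the difference between effects set the treatments apart. YAP/TAZ siRNA and BRD siRNA differed in all 10 genes, against 81.3% of all tested genes, most in MXI1 (1.38, SE 0.0592, limma adjusted p = 7.48e-15), MYC (-0.86) and MLX (-0.70). Time (48 h and 72 h) and target cannot be told apart here. The difference in MLX came from YAP/TAZ mix 2 (31.4), since mix 1 (83.2) was near BRD mix A (85.3) and mix B (82.6). The MYC and MLX libraries of the knockdowns overlapped. For MXD4 this difference was small (0.14, SE 0.0572, limma adjusted p = 0.0286), the libraries overlapped, and it was called in 12 of 20 other settings. It was lost without YAP/TAZ mix 1 replicate 2 (0.12, adjusted p = 0.112), mix 2 replicate 1 (0.15, adjusted p = 0.0549) or replicate 2 (0.14, adjusted p = 0.07), BRD mix A replicate 2 (0.11, adjusted p = 0.0888), or mix B replicate 1 (0.14, adjusted p = 0.0634) or replicate 2 (0.14, adjusted p = 0.054). The JQ1 effect differed from the BRD siRNA effect in 8 genes, against 60.1% of all tested genes. It was higher for MXI1 (1.04), MXD1 (1.03), MXD4 (0.65), MNT (0.43) and MGA (0.40), and lower for MLX (-0.68), MYC (-0.48) and MLXIP (-0.27). The JQ1 effect was taken against DMSO and the BRD siRNA effect against control siRNA, so these values carry the difference between the controls. Time (24 h and 72 h) and kind of treatment (drug and siRNA) cannot be told apart in them either. Against DMSO, BRD siRNA gave -0.50 for MYC, 0.63 for MNT and 3.18 for MXD4, beside -0.34, 0.36 and 3.16 with JQ1. For MXI1, MXD1, MGA, MLX and MLXIP it gave -0.10, 0.38, 0.25, -0.10 and 0.80, beside 1.06, 0.71, 0.52, -0.56 and 0.42. The MNT difference passed narrowly (0.43, limma adjusted p = 0.0264), and it was lost without DMSO replicate 1 (0.26, adjusted p = 0.21), JQ1 replicate 2 (0.34, adjusted p = 0.127), control siRNA replicate 2 (0.40, adjusted p = 0.0709) or BRD mix B replicate 2 (0.39, adjusted p = 0.0529), in a range of 0.00554 to 0.24 over 22 other settings. The MLXIP difference was lost without JQ1 replicate 2 (-0.23, adjusted p = 0.0642), in a range of 0.00479 to 0.0803 over 22 other settings. The comparison of JQ1 with YAP/TAZ siRNA carries the same difference between the controls, and its times differ too (24 h and 48 h). Against DMSO, YAP/TAZ siRNA gave 0.64 for MXD1, -0.20 for MGA and 1.29 for MLXIP, beside 0.71, 0.52 and 0.42 with JQ1. The JQ1 effect differed from the YAP/TAZ siRNA effect in 8 genes as well, against 63.3%, most in MGA (0.86), MXD1 (0.77) and MLXIP (-0.75). Among these, MAX (-0.25, limma adjusted p = 0.0415) was called in 13 of 22 other settings, and MXI1 (-0.34, limma adjusted p = 0.0119) failed when control siRNA replicate 2 (-0.23, adjusted p = 0.0855) or DMSO replicate 1 (-0.30, adjusted p = 0.0579) was left out. For MAX the call was lost without control siRNA replicate 2, YAP/TAZ mix 1 replicate 1, mix 2 replicate 2, DMSO replicate 1 or either JQ1 replicate, in a range of 0.0122 to 0.273 over 22 other settings.

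Levels of different genes were compared only per kilobase of exon, using the union of exons in GENCODE release 29. The gene models behind the counts are not stated, so these levels are approximate. With control siRNA, MYC was highest at 32.7 ± 0.147 (SD, n = 2) scaled RPM per kb and MLX next at 29.97 ± 1.53, followed by MAX at 9.76 ± 0.535 and MXD4 at 7.98 ± 1.37. MXD4 was highest of the 10 genes in all 5 treated groups, with 39.9 ± 1.98 per kb in YAP/TAZ mix 1 and 65.3 ± 0.575 per kb in mix 2. In DMSO it held rank 5, at 4.88 ± 0.1805 per kb.

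The MXD genes, MXI1 and MNT, summed per kilobase, were set beside MYC in each library. The ratio was 0.601 and 0.667 with control siRNA and 0.315 and 0.324 with DMSO. It was 3.98 and 4.34 with YAP/TAZ mix 1, 3.100 and 3.04 with mix 2, 2.03 and 1.65 with BRD mix A, 1.33 and 1.395 with mix B, and 1.55 and 1.48 with JQ1. So these MAX partners together were below MYC in the 4 control libraries and above it in the 10 treated ones. MXD4 made up 35.6 and 41.2% of the sum with control siRNA, 29.9 and 29.9% with DMSO and 64.99 and 67.03% with YAP/TAZ mix 1, and more in the other treated groups. Without MXD4 the ratio was 0.387 and 0.392 with control siRNA, 0.389 and 0.3105 with BRD mix A and 0.252 and 0.259 with mix B. It was 0.635 and 0.618 with YAP/TAZ mix 2, above control siRNA, and 0.381 and 0.389 with JQ1, above the 0.221 and 0.227 of DMSO. It exceeded 1 only with YAP/TAZ mix 1, at 1.39 and 1.43. These are ratios of RNA levels and say nothing about protein.

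**Figure D4:**
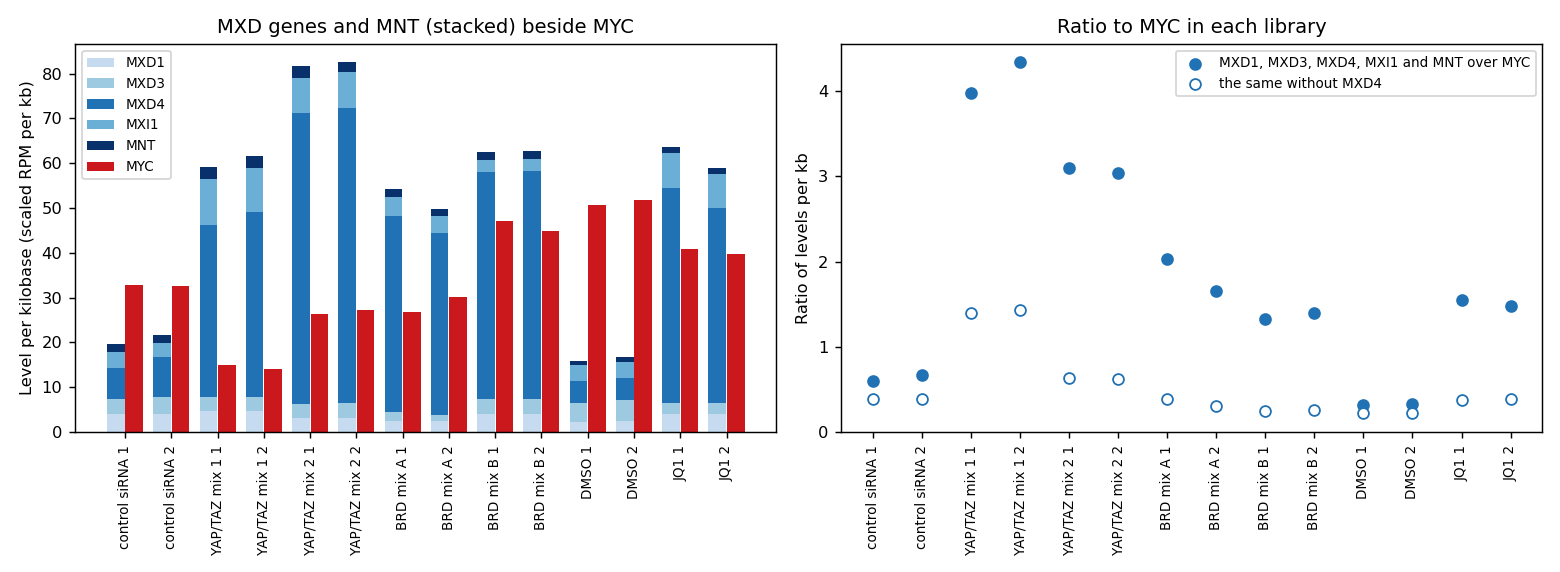
Left, level per kilobase of exon of MXD1, MXD3, MXD4, MXI1 and MNT (stacked blue bars) beside MYC (red bars) in each library. Right, the ratio of that sum to MYC in each library (filled) and the same without MXD4 (open), where the filled points run from 0.315 in DMSO to 4.34 in YAP/TAZ mix 1.

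Genes known to be activated by MYC, many of them in ribosome production and metabolism, were mostly lower in all 3 comparisons. Of 47 such genes tested, 43 were lower and 1 higher with YAP/TAZ siRNA (median log2 fold change -1.23). With BRD siRNA 38 were lower and 3 higher (median -0.50), and with JQ1 42 were lower and 5 higher (median -0.79). The shares of all tested genes that were lower are those given above, 35.9%, 37.6% and 36.3%. With a mix alone 44 and 42 were lower for YAP/TAZ mix 1 and mix 2, against 33.6% and 35.7% of all genes. For BRD mix A and mix B 38 and 35 were lower, against 36.1% and 35.5%, and with mix B MYC itself was higher. In DMSO 41 of the genes were higher than with control siRNA (median 0.51), against 28.7% of all genes.

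Several of these genes fell by large amounts. NME1, a nucleoside diphosphate kinase, went from 114 and 118 with control siRNA to 8.62 and 9.88 with YAP/TAZ mix 1 and 23.1 and 28.3 with mix 2 (-2.83, limma adjusted p = 1.64e-17). DKC1, a pseudouridine synthase, fell by 2.13 with YAP/TAZ siRNA, by 1.22 with BRD siRNA and by 1.70 with JQ1. DDX21, a nucleolar helicase, fell by 2.56, 0.91 and 1.52. ODC1, the entry enzyme of polyamine synthesis and a classic MYC target, fell in the knockdowns (-2.21 and -0.55) and rose with JQ1 (0.81, limma adjusted p = 3.35e-08), from 329 and 311 to 531 and 595. The other 4 genes higher with JQ1, named after their values were seen, were LDHA (0.42), CCND2 (1.08), PTMA (0.67) and SLC7A5 (1.08).

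Genes known to be repressed by MYC were more often higher than lower. Of 11 tested, 8 were higher and 2 lower with YAP/TAZ siRNA, 6 and 3 with BRD siRNA, and 9 and 2 with JQ1, where 43.1%, 37.6% and 37.6% of all genes were higher. Against DMSO in place of control siRNA the BRD counts turned to 5 higher and 6 lower (median -0.32), with 39.1% and 39.7% of all genes. CDKN1A, the p21 inhibitor of cyclin-dependent kinases, stood at 46.7 and 55.6 with control siRNA, 196 and 200 with YAP/TAZ mix 1 and 64.8 and 65.99 with mix 2. It was at 62.8 and 65.6 with BRD mix A and 153 and 157 with mix B, and it rose from 24.4 and 24.6 with DMSO to 192 and 182 with JQ1 (2.88, limma adjusted p = 1.63e-18). NDRG1, a stress-responsive gene, rose by 2.48, 2.79 and 2.45. CDKN2C, the p18 inhibitor, rose with YAP/TAZ siRNA (0.65) and fell with BRD siRNA (-1.52) and JQ1 (-1.23).

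Among glucose response genes of MLXIP and MLX, TXNIP and ARRDC4 rose in all 3 comparisons. TXNIP, an arrestin-like inhibitor of glucose uptake, stood at 339 and 331 with control siRNA, 1136 and 1265 with BRD mix A and 1849 and 1863 with mix B (2.15, limma adjusted p = 5.47e-18). With JQ1 it rose from 288 and 278 to 1461 and 1424 (2.35, limma adjusted p = 4.1e-18). With YAP/TAZ siRNA, where MLXIP RNA was highest, TXNIP rose less (0.41, limma adjusted p = 2.47e-07), to 370.2 and 366 with mix 1 and 535 and 536 with mix 2. The test of YAP/TAZ against BRD siRNA gave -1.75 for it. ARRDC4, its paralogue, rose by 1.05, 1.71 and 1.54. Over the 6 genes of the list, 4, 4 and 3 were higher and 2 were lower in each comparison, where 43.1%, 37.6% and 37.6% of all genes were higher and 35.9%, 37.6% and 36.3% lower, so the shares of this short list lay near the background for the lower genes and for JQ1. KLF10 was lower in the knockdowns (-0.82 and -0.80) and also lower in DMSO than with control siRNA (-0.81).

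A list of other E-box factors was mixed. As written, it also held MYCBP, a MYC-binding protein, and MYCBP2, a MYC-binding ubiquitin ligase. Of its 15 genes, 9 were higher and 3 lower with YAP/TAZ siRNA (all tested genes 43.1% and 35.9%), 7 and 4 with BRD siRNA (37.6% and 37.6%), and 7 and 5 with JQ1 (37.6% and 36.3%). MYCBP2, which is no E-box factor, is 1 of the higher genes in each count (0.37, 0.86 and 0.76). TFAP4, which MYC is known to induce, fell in all 3 (-1.51, -0.67 and -2.71) and went from 18.8 and 18.1 in DMSO to 1.73 and 2.25 with JQ1. MLXIPL (ChREBP), the paralogue of MLXIP, rose with YAP/TAZ siRNA from 1.39 and 2.41 to 8.86 and 9.58 with mix 1 and 13.8 and 12.4 with mix 2 (2.07, limma adjusted p = 9.56e-11).

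Genes that control MYC protein stability were also mixed, with 10 of 19 lower and 5 higher with YAP/TAZ siRNA, against 35.9% and 43.1% of all genes. The counts were 8 and 8 with BRD siRNA (all genes 37.6% and 37.6%) and 9 and 7 with JQ1 (36.3% and 37.6%). SKP2, a ubiquitin ligase subunit that acts on MYC, went from 98.4 and 93.9 to 13.2 and 12.3 with YAP/TAZ mix 1 and 4.97 and 5.09 with mix 2 (-3.42, limma adjusted p = 9.2e-20). PLK1 (-1.86, -1.72 and -3.09) and KIAA1524, which encodes CIP2A (-1.67, -0.97 and -2.31), fell in all 3. PPP2R5A, a phosphatase subunit that favours MYC degradation, rose (0.46, 1.02 and 1.11), although YAP/TAZ mix 2 alone was not called (0.05, limma adjusted p = 0.533).

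Cofactors were called at shares near the background with YAP/TAZ siRNA, 10 of 25 higher and 9 lower against 43.1% and 35.9% of all genes. The counts were 7 and 12 with BRD siRNA (all genes 37.6% and 37.6%) and 7 and 13 with JQ1 (37.6% and 36.3%). WDR5, which helps place MYC on chromatin, fell by 1.22, 0.29 and 0.65. SIN3B, a corepressor scaffold that MXD proteins bring in, rose (0.98, 0.37 and 0.46), although BRD mix B alone was not called (0.06, limma adjusted p = 0.468). For the complex of MGA and E2F6, 8 of 11 genes were lower and 2 higher with YAP/TAZ siRNA (all genes 35.9% and 43.1%), 5 and 4 with BRD siRNA (37.6% and 37.6%), and 7 and 2 with JQ1 (36.3% and 37.6%). TFDP1 (-1.83, -0.57 and -1.20) and PCGF6 (-1.50, -0.64 and -1.24) fell in all 3. RING1 lay higher with YAP/TAZ siRNA, at 79.1 and 81 with mix 1 and 117 and 115.6 with mix 2, beside 57.6 and 62 with control siRNA. From DMSO to JQ1, RING1 went from 58.7 and 61.4 to 91.4 and 90.8, and RYBP from 42.3 and 39.2 to 63.5 and 61.5.

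**Figure D5:**
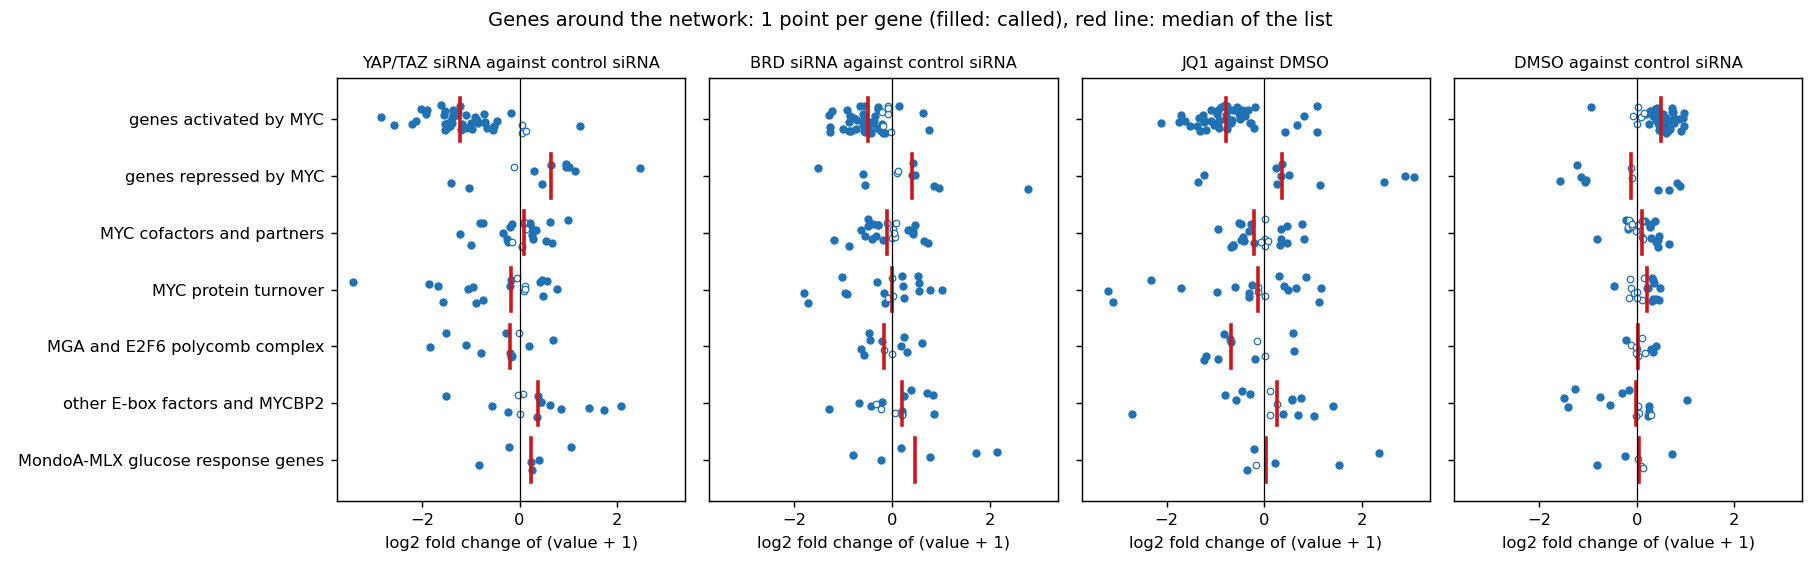
Log2 fold change of value + 1 (horizontal axes) for each gene of the lists around the network, filled where called, with the median of each list as a red line. The median of the genes activated by MYC lies at -1.23, -0.50 and -0.79 in the 3 main comparisons and at 0.51 between DMSO and control siRNA.

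The 5 genes whose levels ran most like MYC over the 14 libraries were FHL2 (Pearson r = 0.973), EIF3L, C5orf30, KDM1A and TBL3 (0.963), out of 9598 genes with a mean of at least 10. FHL2 was at 23.4 and 23.2 with YAP/TAZ mix 1 and at 65.4 and 63.7 in DMSO, its lowest and highest groups, as for MYC. For MXD4 they were KDM4A (0.987), ABTB1, WDR19, MARCH2 and ZER1. Within the network, MYC ran most against MNT (r = -0.838) and MXI1 (-0.684), and MXD4 most with MLXIP (0.834). These correlations describe 14 libraries in 7 groups, which share their group differences and their scaling.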

How the data were processed

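The MDA-MB-231 samples were sequenced as stranded total RNA libraries with ribosomal RNA removed, per the labels' protocols. Per the submitters' processing notes, the builds and tools named are hg19, TopHat2 2.0.5, HTSeq 0.6.0, CASAVA 1.8.4, R 3.0.0 and edgeR, without role or order. Gene models, strand use and the kind of scaling are not stated there. The deposited values are a signal: reads divided by a library total that the authors scaled, with column sums of 903627 to 1098052. Dividing by what 1 read was worth in each library gave whole reads (tolerance 0.01) for 100% of values, and 0 columns were left out. Values were taken as log2(value + 1) for the 13674 genes at 1 or more in at least 2 libraries. One limma 3.58.1 model (R 4.3.3) with 7 group terms, a variance trend and 7 residual degrees of freedom gave two-sided p-values, adjusted by Benjamini-Hochberg over all tested genes at a threshold of 0.05. The model was tested on simulated data in which a small part of the genes changed, each by at least 2-fold, with the same spread in every group. Smaller changes and unequal spread were not simulated, so that test does not speak to them. Replicates of each group differed beyond sampling noise, those of BRD mix A most. The check of 1 targeted transcript is not reported here.

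The network genes and gene lists were chosen with earlier results of these data known. All 10 members are named. From each list around the network, genes could be named that were among the 4 with the largest moderated statistic in a main comparison, as could TXNIP, ARRDC4, PVT1, ODC1, CDKN1A and the 5 genes most like MYC and MXD4. Each comparison was repeated with pseudocounts of 0.25 and 4, without a filter and with one at 5, with other scalings (upper quartile, median ratio, quantile), with the replicate number as a block, without the trend, with only its own libraries, without each library in turn, with single mixes and with DMSO as the control. Recovered reads were also tested with edgeR 4.0.16 and DESeq2 1.42.0. Counts over lists with single mixes and with DMSO were added after seeing the data.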

Additional observations from a re-analysis of the deposited data

Results flagged for a closer look

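Members are listed here because the siRNA mixes of 1 target differed by the test of that difference (limma adjusted p under 0.05), which was run on 10 members. For YAP/TAZ mix 1 minus mix 2 the log2 differences were 1.38 for MLX, -0.86 for MYC, -0.71 for MXD4, 0.53 for MXD1, 0.47 for MGA, 0.33 for MXI1 and -0.30 for MLXIP. MXD1 was called in opposite directions with these mixes. For BRD mix A minus mix B the differences were -0.87 for MXD3, -0.69 for MYC, -0.68 for MXD1, 0.57 for MXI1, -0.41 for MAX, -0.27 for MXD4, -0.26 for MLXIP and -0.19 for MGA. MYC and MXI1 were called in opposite directions with the BRD mixes. The MGA difference was lost in 5 of 16 other settings, among them without mix A replicate 2 (-0.07, adjusted p = 0.504) or mix B replicate 1 (-0.11, adjusted p = 0.37). That of MXD4 was lost without mix A replicate 2 (-0.21, adjusted p = 0.0682) and that of MLXIP without mix B replicate 1 (-0.20, adjusted p = 0.055).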

How the results depend on the processing

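The number of members called kept within 1.5 times its value in all 9 comparisons under every alternative run. With a library left out it ranged from 7 to 7 for YAP/TAZ siRNA, 5 to 7 for BRD siRNA, 9 to 10 for JQ1 and 4 to 6 for DMSO against control siRNA. Of the members' fold changes, excluding single mixes and DMSO as control, 179 of 180 kept direction and side of the threshold for YAP/TAZ siRNA, 171 of 180 for BRD siRNA and 157 of 160 for JQ1. Apart from values called in neither setting, signs turned only with single mixes or DMSO as control. For YAP/TAZ siRNA, MXD1 turned to 0.21 with mix 1 alone and to 0.64 against DMSO, and MLX to 0.10 with mix 1 alone. For BRD siRNA, MYC turned to -0.20 with mix A alone and -0.50 against DMSO, MXD1 to 0.020 with mix B alone and 0.38 against DMSO, MXI1 to -0.27 with mix B alone, and MNT to 0.63 against DMSO. The replicate block left the counts of called members at 7, 6 and 10 in the 3 main comparisons. Replicate numbers are only shared numbers here: deviations of same-numbered libraries correlated from -0.50 to 0.39 over 21 pairs of groups. In the 3 main comparisons, median-ratio and upper-quartile scaling shifted all genes by at most 0.07 on the log2 scale. The cause of these changes was not tested. Depth limits MXD3 and MNT most, which rested on as few as 119 and 139 reads in a library.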
